A study of Mus musculus with 6 samples.

Results

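The mitochondrially encoded genes are the genes carried on the small circular genome inside mitochondria. They were chosen here as the rows of the table whose Ensembl identifier maps to a mouse symbol starting with mt-, which gave 32 of 25894 genes. These were all 13 protein-coding genes and both ribosomal RNA (rRNA) genes of the mitochondrial genome, and 17 of its 22 transfer RNA (tRNA) genes. The other 5 tRNA genes (mt-Tf, mt-Td, mt-Tk, mt-Tg and mt-Tt) had no row and are not analysed here.

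The tissue was inguinal white fat, which lies under the skin of the groin, and its RNA was sequenced in 6 C57BL/6N females aged 15 weeks. In one group of 3 mice sleep was fragmented for 8 weeks and could then recover for 2 weeks, and these mice are called fragmented, recovered 1 to 3. The other group is 3 control mice, called control 1 to 3. Each library came from the fat of 1 mouse, taken after 10 h of fasting in both groups, and no transgene or drug is named in the labels. The comparison asks which transcripts still differ from controls after the recovery weeks.

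Mitochondrial DNA encodes core subunits of 4 of the 5 complexes of oxidative phosphorylation, and every other subunit is encoded in the nucleus. Both strands are transcribed into long precursors, which are cut mostly at the tRNAs that lie between the coding genes. One precursor, from the heavy-strand promoter, carries both rRNAs and nearly all mRNAs, and the other, from the light-strand promoter, carries mt-Nd6 and a set of tRNAs. In fat, mitochondria burn fatty acids and supply the citrate and ATP used for lipid synthesis, and in beige adipocytes they also produce heat. Pieces of mitochondrial DNA have been copied into nuclear chromosomes, and in the mouse some of these copies are nearly identical to the genes they came from.

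Several sequences bear on how the values can be read, and all are from GENCODE M21 transcripts of build GRCm38. The first pair shows the start of mt-Nd3 and of its nuclear copy Gm28438, a pseudogene on chromosome 1. The capital marks the only base that differs over 345 compared bases, T3C, counted from 1 at the first base of mt-Nd3, with the mt-Nd3 base written first.
mt-Nd3: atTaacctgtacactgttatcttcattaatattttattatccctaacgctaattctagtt
Gm28438: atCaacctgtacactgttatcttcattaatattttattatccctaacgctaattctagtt
The next stretch is bases 847 to 906 of mt-Nd4. Its lower-case bases lie in the 876 bases that the nuclear pseudogene Gm28439 also carries, and the capitals lie past the end of that copy.
mt-Nd4: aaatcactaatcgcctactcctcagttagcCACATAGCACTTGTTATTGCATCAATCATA
The end of mt-Atp8, bases 142 to 204, is shown because 43 of its bases, in capitals, are also the start of mt-Atp6.
mt-Atp8: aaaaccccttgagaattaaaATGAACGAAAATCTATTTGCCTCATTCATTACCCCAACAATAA
The 5 most abundant tRNA genes of the table carry proline (mt-Tp), cysteine (mt-Tc), asparagine (mt-Tn), tyrosine (mt-Ty) and glutamate (mt-Te). All lie on the light-strand precursor, and their anticodons are in capitals.
mt-Tp: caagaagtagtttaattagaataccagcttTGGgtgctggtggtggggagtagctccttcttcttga
mt-Tc: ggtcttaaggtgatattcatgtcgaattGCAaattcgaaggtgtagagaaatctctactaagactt
mt-Tn: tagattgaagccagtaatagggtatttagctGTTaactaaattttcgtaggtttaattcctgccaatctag
mt-Ty: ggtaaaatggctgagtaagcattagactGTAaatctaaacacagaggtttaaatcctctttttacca
mt-Te: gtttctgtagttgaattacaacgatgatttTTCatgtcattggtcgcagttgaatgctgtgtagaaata

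The deposited values are reads per gene scaled by a size factor for each library, and the recovered reads ranged from 15610201 to 19703569 per library. All 10 adipocyte markers were present, with summed values from 164601 in control 2 to 596447 in fragmented, recovered 1. Controls 2 and 3 stood apart from the other 4 libraries. Across 22262 genes, the log2 deviation of a gene from its mean fell with GC content in these 2 controls (Spearman rho = -0.27 in both), and rose with it in the other 4 libraries (rho from 0.13 to 0.37). B and plasma cell markers were high in 3 libraries, with median log2 deviations of 4.56 in control 2, 3.18 in control 3 and 3.29 in fragmented, recovered 2, and lay between -3.90 and -2.94 in the other 3. Skeletal muscle markers ranged from -4.76 in control 3 to 5.65 in fragmented, recovered 1. The part of these differences in the results below was not tested, and in whole tissue, fewer cells of a type and less RNA per cell cannot be told apart.

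Mitochondrially encoded transcripts were a large part of every library, and the 2 groups overlapped. They took 12.4%, 6.33% and 8.81% of all reads in fragmented, recovered 1 to 3, and 10.7%, 8.13% and 7.51% in controls 1 to 3. The group means were 9.18% ± 3.05 (SD, n = 3) and 8.77% ± 1.68 (SD, n = 3). Both the highest and the lowest library were fragmented, recovered mice, and the difference of 0.405 percentage points was smaller than either SD. The 95% Wilson interval of each library's share was at most 0.0302 percentage points wide, and it covers counting error only.

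Protein-coding genes supplied nearly all of these reads. They took 11.9%, 6.01% and 8.48% of all reads in fragmented, recovered 1 to 3, and 10.1%, 7.68% and 7.15% in controls 1 to 3. The rRNA genes took between 0.294% and 0.506% and the tRNA genes between 0.0265% and 0.0630%. How RNA was selected before library construction is not given in the sources used here, and that step sets how much rRNA is sequenced. A tRNA gene is 59 to 75 bases long, and reads of mature tRNAs and of uncut precursors cannot be told apart.

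**Figure D1:**
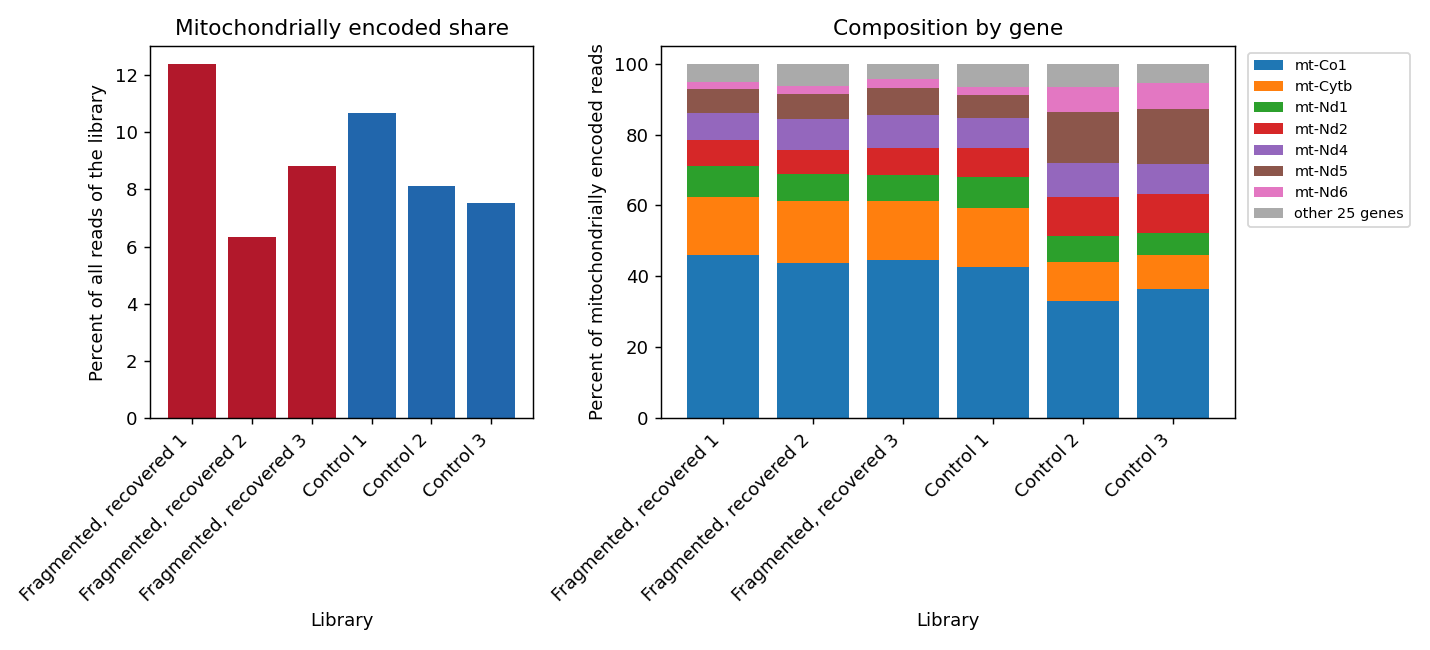
Left: share of all recovered reads, in percent, taken by mitochondrially encoded genes in each of the 6 libraries. Right: percent of each library's mitochondrially encoded reads held by mt-Co1, mt-Cytb, mt-Nd1, mt-Nd2, mt-Nd4, mt-Nd5, mt-Nd6 and the other genes together. Shares of all reads ran from 6.33% to 12.4%, both in fragmented, recovered mice, and the protein-coding genes made up nearly all of each share.

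Per kilobase of annotated length, mt-Co1, the catalytic subunit of cytochrome c oxidase, had the highest mean level of the 13 protein-coding genes, at 428278 ± 164196 normalised reads per kb (SD over 6 libraries). mt-Cytb, the cytochrome b of complex III, followed at 206350 ± 88848. mt-Nd2, mt-Nd1, mt-Nd6, mt-Nd4 and mt-Nd5, all membrane subunits of complex I, lay between 131314 and 81462 per kb. The differences between neighbours in that stretch were smaller than their SDs, which ran from 25035 to 70217. Far below these were mt-Atp6 at 9221, mt-Co2 at 6840, mt-Co3 at 5897, mt-Nd4l at 2177, mt-Nd3 at 670 and mt-Atp8 at 74.3 per kb.

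This order ran alongside the nuclear copies. The 5 genes with a nuclear copy on chromosome 1 of at least 99% identity over more than 98% of their length were mt-Co2, mt-Atp6, mt-Co3, mt-Nd3 and mt-Nd4l, and their mean levels lay between 670 and 9221 per kb. The 5 genes with no such copy were mt-Nd1, mt-Nd2, mt-Nd5, mt-Nd6 and mt-Cytb, and they lay between 81462 and 206350 per kb. mt-Nd4, copied over 63.6% of its length, and mt-Co1, copied over 31.3%, were in the high range. mt-Atp8 was low although only 21.1% of it is copied, and it overlaps mt-Atp6 by 43 bases and is 204 bases long. How reads that map to more than 1 place, or to overlapping genes, were counted is not given in the sources used here, so the levels of the copied and overlapping genes are uncertain. GC content was 33.0% to 41.1% in the 5 copied genes and 34.1% to 39.1% in the 5 without a copy, and the part of either in the levels was not tested.

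**Figure D2:**
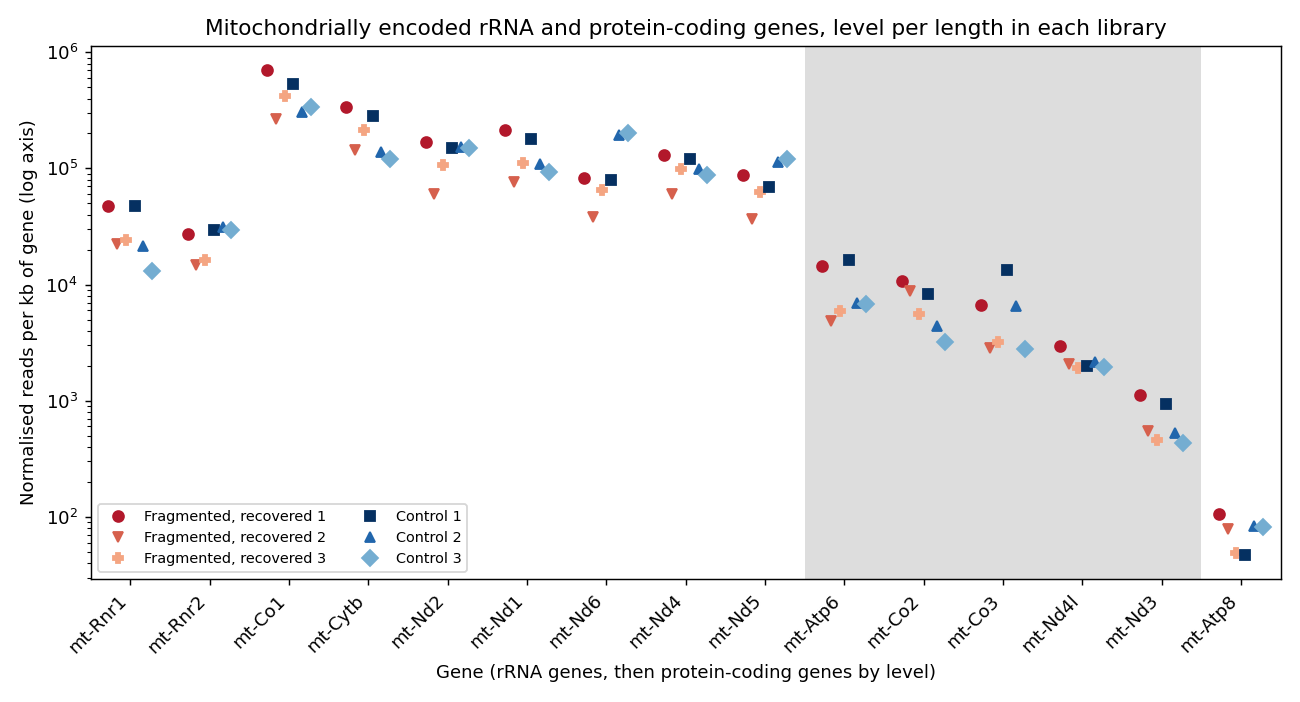
Normalised reads per kb of gene (log axis) for the 13 mitochondrially encoded protein-coding genes in each of the 6 libraries. The shaded genes have a nuclear copy of at least 99% identity over more than 98% of their length, and their means of 670 to 9221 per kb lie below the 81462 to 206350 of the 5 genes with no such copy.

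The nuclear copies themselves carried reads. Of the reads of mt-Nd3 and Gm28438 together, the copy held 63.3%, 67.5% and 95.7% in fragmented, recovered 1 to 3, and 67.2%, 74.6% and 75.6% in controls 1 to 3. For mt-Atp6 with Gm10925 the copy held 23.3% to 43.2%, for mt-Co2 with Gm28661 27.6% to 41.2%, for mt-Co3 with Gm28437 22.8% to 37.4%, and for mt-Nd4l with Gm10222 27.5% to 35.5%. Where the copy is partial the share was small, at 0.703% to 1.30% for mt-Nd4 with Gm28439 and 0.196% to 0.419% for mt-Co1 with Gm29216.

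Gm28438 was singled out after its values were seen. It stood at 672, 395 and 3494 normalised reads in fragmented, recovered 1 to 3, and at 669, 534 and 470 in controls 1 to 3. The high value is that of fragmented, recovered 3 alone, and mt-Nd3 was at 159 there, near the lowest of its 6 values. The log2 difference of Gm28438 was 0.82, and -0.10 without fragmented, recovered 3. The T3C base shown above is among the places where the mitochondrial genomes of C57BL/6J and C57BL/6N mice are known to differ. Nnt, a nuclear gene of a mitochondrial enzyme that carries a known deletion in C57BL/6J, was also chosen after its values were seen. It stood at 3.11, 9.10 and 7.22 in fragmented, recovered 1 to 3, and at 4.26, 12.4 and 26.7 in controls 1 to 3. The substrain of each mouse was not tested.

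The 3 copies with the highest means did not separate the groups. Gm10925 differed by -0.10 on the log2 scale (SE 0.32), Gm28661 by 0.46 (SE 0.41) and Gm29216 by 0.35 (SE 0.39).

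**Figure D3:**
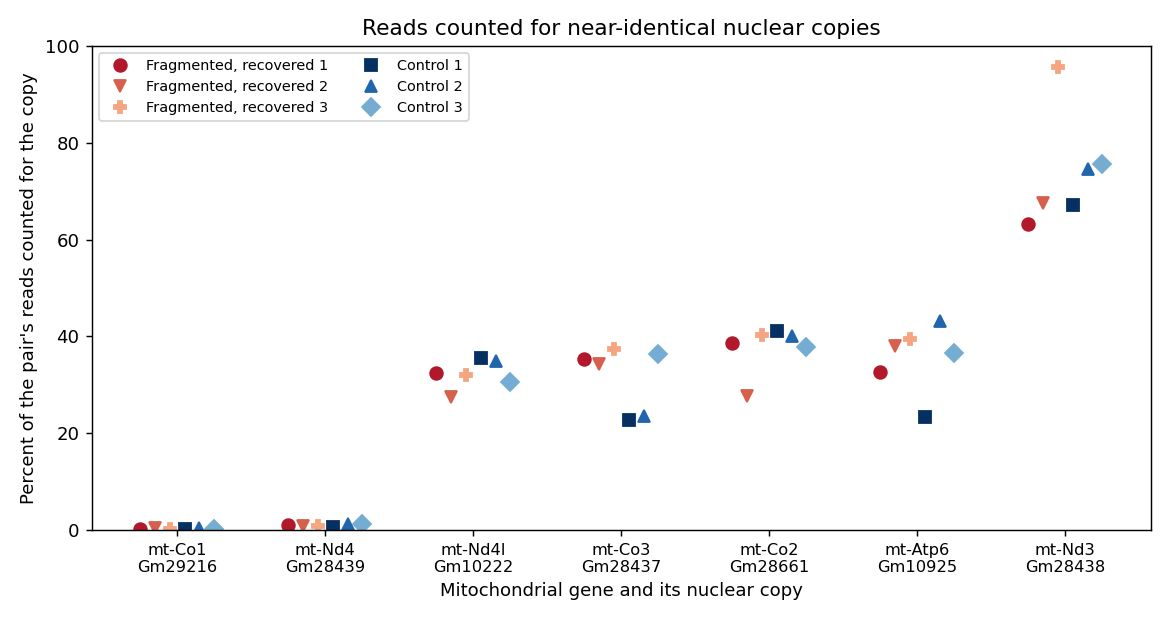
Share of the reads of a mitochondrial gene and its nuclear copy that was counted on the copy, in percent, for each of the 6 libraries. Gm28438 held 95.7% of the mt-Nd3 pair in fragmented, recovered 3 and 63.3% to 75.6% in the other 5 libraries.

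No mitochondrially encoded gene passed the test between the groups. Of the 32 genes, 29 had a mean of at least 1 and were tested with limma on log2(value + 1), a scale that understates changes of low genes. At an FDR of 0.05, 0 of the 29 were called, beside 0.0% of the 22290 genes tested, and their adjusted p-values ran from 0.697 to 0.999. By edgeR's quasi-likelihood test and by DESeq2 on the recovered reads, 0 were called as well. By limma-voom with quality weights 2 were called, mt-Nd6 and mt-Ty, beside 1023 of 16141 genes over the whole table. In the main test 4 had an unadjusted p under 0.05, all lower in the fragmented, recovered mice: mt-Nd6, mt-Te, mt-Ts2 and mt-Tl1. Of all genes tested, 2.14% had such a p in the lower direction, 3.24% in the higher and 5.39% in either. These shares are of the main test, and those of the other fits are not given here. edgeR gave 3 of these 4, without mt-Ts2, and mt-Tw, a tryptophan tRNA gene named here after its values were seen, and DESeq2 gave all 4 and mt-Tw. Which genes had such a p depended on single libraries. Without control 1 there were 8, the 4 among them, and 3 of the 8 were higher. Over the whole table, that fit called 844 of 22290 genes at an FDR of 0.05, beside 0 in the main test. Without fragmented, recovered 1, 6 had an unadjusted p under 0.05, with 3 of the 4. Without control 3 there were 2, with mt-Te alone of the 4. Without fragmented, recovered 2 or 3 there were 3 each, with 3 and 2 of the 4, and without control 2 there were 0. Against control 1 alone, 0 of the 4 had such a p. With GC and length trends removed it was again 0 of the 4, and the single gene with such a p was mt-Co2, in the higher direction.

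The groups did not overlap for 4 genes, mt-Rnr2, mt-Te, mt-Ts2 and mt-Tl1, in each of which all fragmented, recovered mice lay below all controls, as did 3.58% of all genes tested. Of the 29 tested genes 0 lay above, as did 5.02% of all genes, and 8.59% of all genes did not overlap in either direction. The median log2 difference was -0.0028 over the 13 protein-coding genes, with 6 positive and 7 negative, and -0.73 over the 14 tested tRNA genes, with 5 positive and 9 negative. The median over all genes tested was 0.023. The tRNA median is given for the main test only, and genes of few reads enter it, such as mt-Ti with 0 to 13 and mt-Tr with 0 to 3. In the setting with GC and length trends removed, mt-Te, mt-Ts2 and mt-Tl1 differed by -0.12, -2.06 and -0.68. Without fragmented, recovered 1 the protein-coding median was -0.40, without fragmented, recovered 2 it was 0.16, and with GC and length trends removed it was 0.21. The SEs of the 29 genes ran from 0.25 to 1.11, so the 95% intervals of most of them were wider than 2 log2 units.

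**Figure D4:**
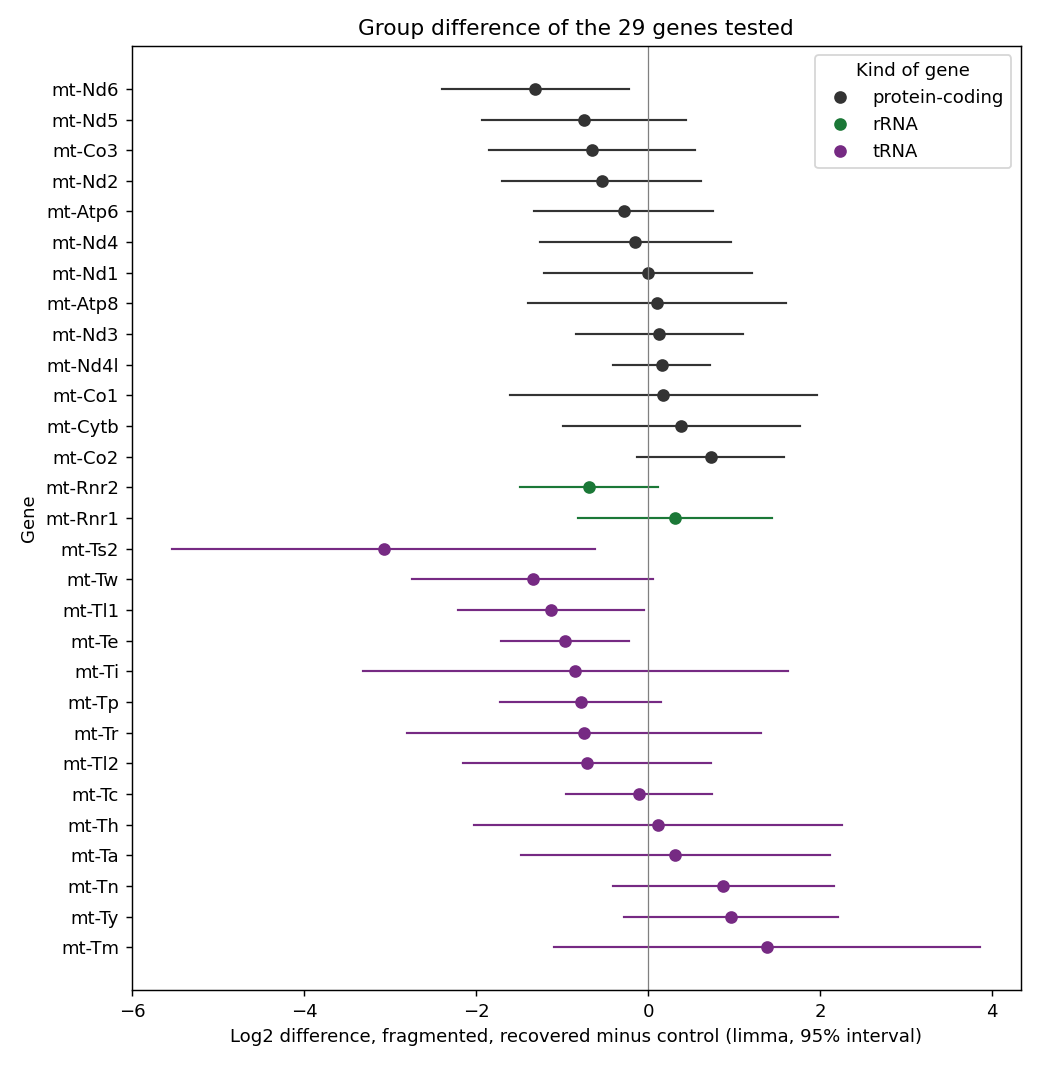
Log2 difference, fragmented, recovered minus control, with its 95% confidence interval for each of the 29 tested mitochondrially encoded genes. The intervals of mt-Nd6, mt-Te, mt-Ts2 and mt-Tl1 lie below 0 before adjustment for the 22290 genes tested, and 0 genes passed an FDR of 0.05.

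Complex I, which takes electrons from NADH, has 7 mitochondrially encoded subunits. mt-Nd6 (ENSMUSG00000064368), the only one read from the light-strand precursor, was at 42802, 19761 and 33704 normalised reads in fragmented, recovered 1 to 3, and at 40935, 101641 and 104525 in controls 1 to 3. Controls 2 and 3 were the high libraries, and control 1 lay within the range of the fragmented, recovered mice. The log2 difference was -1.31 (SE 0.49, 95% interval -2.40 to -0.22; limma adjusted p = 0.697). Against control 1 alone it was -0.42, and with trends on GC content and length removed it was -0.92.

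mt-Nd5, the neighbour of mt-Nd6 on the opposite strand, had a similar order of libraries. Its values were 158699, 67190 and 113400 in fragmented, recovered 1 to 3, and 125429, 208142 and 218662 in controls 1 to 3. Again controls 2 and 3 were highest and control 1 lay among the fragmented, recovered mice, and the log2 difference was -0.75 (SE 0.53). The 2 genes share 14 bases, and whether reads were counted by strand is not stated, so sense and antisense reads at this pair cannot be told apart.

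The other complex I subunits overlapped between the groups. mt-Nd1 was at 203581, 72468 and 107277 in fragmented, recovered 1 to 3 and at 172388, 104124 and 88678 in controls 1 to 3, a log2 difference of -0.0028 (SE 0.54). mt-Nd2 was at 175412, 63002 and 111573 against 154525, 158647 and 154667, and differed by -0.54 (SE 0.52). In both genes fragmented, recovered 1 was the highest library and fragmented, recovered 2 the lowest.

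mt-Nd4 was at 180690, 83263 and 135698 against 167307, 136215 and 121676, a difference of -0.15 (SE 0.50). The low complex I genes were mt-Nd4l, at 572 to 871 in fragmented, recovered mice and 585 to 640 in controls (0.16, SE 0.25), and mt-Nd3, at 159 to 390 and 152 to 326 (0.13, SE 0.43). These both have full-length nuclear copies, so their own levels are uncertain.

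Complex III hands electrons to cytochrome c, and mt-Cytb is its single mitochondrially encoded subunit. It was at 388663, 164910 and 244967 in fragmented, recovered 1 to 3, and at 322289, 157879 and 137681 in controls 1 to 3. Controls 2 and 3 were the lowest libraries here, the opposite of mt-Nd6, and the log2 difference was 0.39 (SE 0.62).

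Complex IV reduces oxygen to water, and its catalytic core is mitochondrially encoded. mt-Co1 was at 1083996, 414819 and 652352 in fragmented, recovered 1 to 3, and at 825836, 475073 and 518061 in controls 1 to 3, a log2 difference of 0.18 (SE 0.79). mt-Co2, which holds the first copper centre of the enzyme, was at 7388, 6021 and 3807 against 5670, 2989 and 2198. It differed by 0.73 (SE 0.38), and control 1 again lay among the fragmented, recovered mice. mt-Co3 was at 5280, 2224 and 2536 against 10378, 5156 and 2168, with control 1 the highest, and differed by -0.65 (SE 0.53), a value that ran from -1.24 to -0.11 with single mice left out.

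Complex V is the ATP synthase, and mt-Atp6 and mt-Atp8 are parts of its membrane-embedded stator. mt-Atp6 was at 9915, 3337 and 4057 against 10991, 4746 and 4630, a log2 difference of -0.28 (SE 0.46). mt-Atp8 was at 9.93 to 21.8 in fragmented, recovered mice and 9.59 to 17.0 in controls, on as few as 9 reads (0.11, SE 0.67). The groups overlapped for both.

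The 2 rRNAs of the mitochondrial ribosome did not move together. mt-Rnr1, the 12S rRNA of the small subunit, was at 45603, 21267 and 23283 in fragmented, recovered 1 to 3, and at 45631, 20449 and 12531 in controls 1 to 3. Its log2 difference was 0.32 (SE 0.50). mt-Rnr2 (ENSMUSG00000064339), the 16S rRNA of the large subunit, was at 43294, 23252 and 25667 against 46243, 49398 and 47076. All 3 controls were above all fragmented, recovered mice, fragmented, recovered 1 by little, and the difference was -0.69 (SE 0.36, 95% interval -1.48 to 0.11; limma adjusted p = 0.697). It was -0.65 against control 1 alone and -0.34 with GC and length trends removed.

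Among the tRNA genes, mt-Tp had most reads, at 8283, 2307 and 3374 in fragmented, recovered 1 to 3 and 6227, 7208 and 7355 in controls 1 to 3. It differed by -0.79 (SE 0.42), with fragmented, recovered 1 above every control. mt-Tc was at 2076, 844 and 1151 against 2059, 1217 and 1007 (-0.11, SE 0.38). mt-Tn was at 1016, 279 and 239 against 401, 190 and 144 (0.88, SE 0.57), and mt-Ty at 391, 241 and 298 against 396, 131 and 72.4 (0.96, SE 0.55). For mt-Tc, mt-Tn and mt-Ty, control 1 and fragmented, recovered 1 were the highest libraries.

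mt-Te (ENSMUSG00000064369), which lies next to mt-Nd6 on the same precursor, was at 124, 123 and 114 in fragmented, recovered 1 to 3, and at 182, 312 and 232 in controls 1 to 3. The fragmented, recovered mice were close together and all below the controls. The log2 difference was -0.97 (SE 0.33; limma adjusted p = 0.697), -0.60 against control 1 alone, and -0.12 with GC and length trends removed.

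Of the serine and leucine tRNAs with an unadjusted p under 0.05, mt-Ts2 (ENSMUSG00000064365) had 0 reads in fragmented, recovered 1, which allows a value of up to 3.11, and stood at 20.5 and 12.6 in fragmented, recovered 2 and 3. Its values in controls 1 to 3 were 32.0, 73.5 and 70.2. The fitted difference was -3.07 (SE 1.10; limma adjusted p = 0.697). It rests on the library at 0, being -1.71 without it, depends on the pseudocount, and was -2.06 with GC and length trends removed. mt-Tl1 (ENSMUSG00000064340) was at 36.3, 66.8 and 47.9 against 71.4, 101.7 and 171.6, a difference of -1.13 (SE 0.48; limma adjusted p = 0.697), -0.54 against control 1 alone, and -0.68 with GC and length trends removed. The adjusted p-values of mt-Nd6, mt-Te, mt-Ts2 and mt-Tl1 without control 1 were 0.065, 0.069, 0.154 and 0.120.

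The other 10 tRNA genes had means from 0.253 to 44.0 normalised reads. mt-Tv, mt-Tq and mt-Ts1 had means under 1 and were not tested. Summed over the 8 tRNA genes of the light-strand precursor, libraries held 5013 to 11472 reads, and over the 9 of the heavy-strand precursor 95 to 322 reads.

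Ratios between genes within a library do not depend on its size factor, and they set controls 2 and 3 apart from control 1. Per kilobase, mt-Nd6 stood to mt-Cytb at 0.243, 0.264 and 0.303 in fragmented, recovered 1 to 3, and at 0.280, 1.42 and 1.67 in controls 1 to 3. mt-Nd5 stood to mt-Nd4 at 0.664, 0.610 and 0.631, and at 0.566, 1.15 and 1.36. In each ratio control 1 lay within or just outside the range of the fragmented, recovered mice, while controls 2 and 3 were far from it.

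The same division held for the 2 rRNAs and for mt-Co1. mt-Rnr1 stood to mt-Rnr2 at 1.745, 1.515 and 1.503 per kilobase in fragmented, recovered 1 to 3, and at 1.63, 0.686 and 0.441 in controls 1 to 3. The GC contents of these rRNAs are 35.8% and 35.4%, although their lengths differ, at 955 and 1582 bases. mt-Nd6 and mt-Cytb differ more in GC content, at 34.1% and 39.1%, and deviations fell with GC content in controls 2 and 3. The part of GC content and length in any of these ratios was not tested. mt-Co1 held 46.0%, 43.8% and 44.5% of all mitochondrially encoded reads in fragmented, recovered 1 to 3, and 42.6%, 33.1% and 36.4% in controls 1 to 3. For mt-Nd6 these shares were 1.81%, 2.09% and 2.30%, and 2.11%, 7.08% and 7.35%. B and plasma cell markers, high in controls 2 and 3, were high in fragmented, recovered 2 too, and the part of these cells in the ratios was not tested. The libraries were put in these 2 sets by their values, so no test is given.

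**Figure D5:**
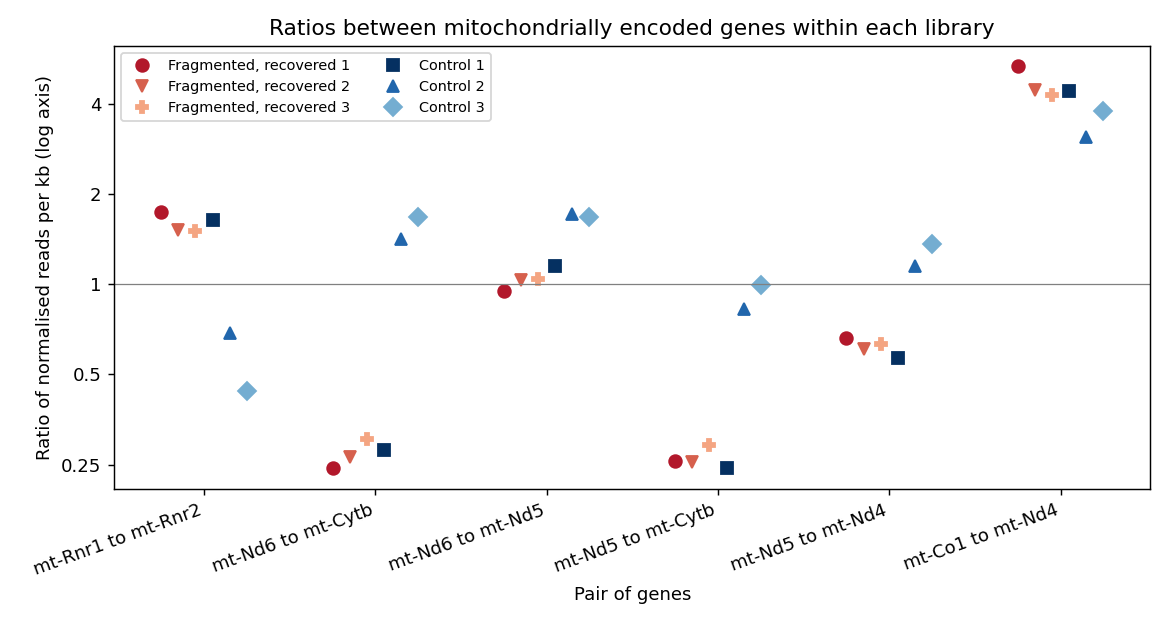
Ratios between mitochondrially encoded genes within each of the 6 libraries, from normalised reads per kb (log axis). Controls 2 and 3 had mt-Nd6 to mt-Cytb ratios of 1.42 and 1.67, and the other 4 libraries, control 1 among them, lay between 0.243 and 0.303.

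The nuclear-encoded subunits of the complexes that also hold mitochondrially encoded ones had mostly positive differences, and 0 passed an FDR of 0.05 in the main test. Of all genes tested, 51.6% had a positive difference. For complex I, 30 of 36 tested genes were positive, with a median log2 difference of 0.49. For complex III it was 6 of 9 with a median of 0.43, for complex IV 11 of 11 with 0.52, and for complex V 12 of 15 with 0.34. Complex II, which has no mitochondrially encoded subunit, had 2 of 4 positive and a median of -0.051. These lists include genes of an earlier list already known to be higher in these data. With GC and length trends removed, Cox4i1 turned to -0.075, Cox6a1 to -0.23 and Atp5b to -0.11. The other subunits named below kept their sign there. Leaving out control 1 keeps only controls 2 and 3, so group cannot be told apart from their GC trend. The calls depended on control 1: without it, limma called 14 of 36 complex I, 5 of 9 complex III, 4 of 11 complex IV and 5 of 15 complex V genes at an FDR of 0.05, all higher, beside 2.53% of all genes. With all libraries and limma-voom with quality weights, 9, 4, 3 and 4 of them were called, all higher, beside 4.33% of all genes.

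By library, the nuclear complex IV genes had median log2 deviations of 0.68, 0.19 and -0.011 in fragmented, recovered 1 to 3, and 0.85, -0.85 and -0.74 in controls 1 to 3. The nuclear complex I genes had 0.50, 0.32 and 0.0087, and 0.82, -0.76 and -0.72. Control 1 was the highest library in both and controls 2 and 3 the lowest. For the 13 mitochondrially encoded protein-coding genes the medians were 0.55, -0.68 and -0.21, and 0.40, 0.00077 and -0.27. Fragmented, recovered 2 was thus lowest for the mitochondrially encoded genes and above the mean for the nuclear ones. Adipocyte markers had 0.69, 0.017 and -0.056, and 0.35, -0.54 and -0.41, and mammary epithelium markers had -1.22 and -1.29 in controls 2 and 3 but 0.18 to 0.99 elsewhere. The part of these markers in the differences was not tested.

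Single nuclear subunits show the same libraries. Cox6b1, a peripheral subunit of complex IV, was at 3867, 2884 and 2580 in fragmented, recovered 1 to 3, and at 4340, 457 and 456 in controls 1 to 3 (log2 difference 1.66, SE 0.74). Uqcr11 of complex III was at 1102, 1180 and 628 against 1393, 88.2 and 92.5 (2.05, SE 0.90). In both genes controls 2 and 3 were the lowest libraries and control 1 the highest. Without control 1 the difference of Cox6b1 was 2.75 (limma adjusted p = 0.0172) and that of Uqcr11 3.36 (limma adjusted p = 0.0174). That fit keeps only controls 2 and 3, so group and the GC trend of these libraries cannot be told apart in it. GC content is 51.0% in Cox6b1 and 59.8% in Uqcr11. Atp5k of complex V differed by 2.93 (SE 1.42), Ndufs5 of complex I by 1.59 (SE 0.76), Cox5b by 1.55 (SE 0.74), Uqcrb by 1.08 (SE 0.57) and Atp5d by 0.91 (SE 0.46).

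The most abundant nuclear subunits differed by less. Ndufa10 differed by 0.49 (SE 0.39), Sdha by -0.19 (SE 0.28), Uqcrc1 by -0.13 (SE 0.25), Uqcrfs1 by -0.04 (SE 0.29), Cox4i1 by 0.52 (SE 0.44), Cox6a1 by 0.51 (SE 0.36), Atp5b by 0.18 (SE 0.36) and Atp5a1 by -0.38 (SE 0.27). Of complex II, Sdhb differed by -0.31 (SE 0.25) and Sdhc by 0.24 (SE 0.29). Ndufb2 went the other way from its list: it was at 148, 185 and 254 in fragmented, recovered 1 to 3, below the 391, 340 and 403 of controls 1 to 3, with a difference of -0.98 (SE 0.30; limma adjusted p = 0.697).

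The machinery that copies, transcribes and processes mitochondrial DNA and RNA had medians near that of all genes. For transcription and genome maintenance, 8 of 17 tested genes were positive, with a median of -0.043, and 0 had an unadjusted p under 0.05. Tfam, which packages mitochondrial DNA and starts its transcription, was at 739, 620 and 605 in fragmented, recovered 1 to 3 and 674, 1024 and 867 in controls 1 to 3 (-0.37, SE 0.25). Polrmt, the mitochondrial RNA polymerase, differed by -0.14 (SE 0.26), and Polg, the DNA polymerase, by -0.04 (SE 0.25). Top1mt, a mitochondrial topoisomerase, differed by 0.99 (SE 0.46) and Mgme1, a mitochondrial exonuclease, by 0.48 (SE 0.32).

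For RNA processing, modification and decay, 10 of 29 tested genes were positive, with a median of -0.061. There were 3 with an unadjusted p under 0.05 in the lower direction and 1 in the higher, beside 2.14% and 3.24% of all genes tested. The 3 were Lrpprc, which binds and stabilises mitochondrial mRNAs, Trnt1, which adds the CCA end to tRNAs, and Ptcd3, a protein of the mitochondrial ribosome. Lrpprc was at 969, 1092 and 1215 in fragmented, recovered 1 to 3 and 1195, 2054 and 1820 in controls 1 to 3, and differed by -0.60 (SE 0.26). Trnt1 differed by -0.63 (SE 0.25) and Ptcd3 by -0.57 (SE 0.24), while Grsf1, an RNA granule protein, differed by -0.33 (SE 0.24). For Lrpprc the groups overlapped at control 1. The gene in the higher direction, named after its values were seen, was Fastk, whose mitochondrial form is known to be needed for mt-Nd6 mRNA. It was at 863, 944 and 822 against 872, 376 and 377 (0.81, SE 0.34), with controls 2 and 3 the lowest libraries.

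Of the regulators of mitochondrial biogenesis, 4 of 9 tested genes were positive, with a median of -0.033. Ppargc1a, the coactivator PGC-1 alpha, was at 181, 124 and 579 in fragmented, recovered 1 to 3 and 231, 217 and 280 in controls 1 to 3, a difference of -0.03 (SE 0.51). Fragmented, recovered 3 was the highest library and fragmented, recovered 2 the lowest. The transcription factors Yy1 and Gabpa differed by -0.47 (SE 0.25) and -0.34 (SE 0.24). In the main test, the limma adjusted p-values of all nuclear genes named here were at least 0.697.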

How the data were processed

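RNA was sequenced from inguinal fat of 3 fragmented, recovered and 3 control mice, 1 library per mouse. CASAVA, HISAT2 (2.0.5), featureCounts (1.5.0-p3) and the build mm8 are named, per the submitters' processing notes. Each deposited value is a signal, which is a read count over the library's size factor. Dividing by each column's step gave whole reads for 100% of values, within 0.02. These reads were used for shares and for the count tests, which called 0 genes (edgeR, of 16141) and 0 genes (DESeq2). Symbols were not found for 33 identifiers.

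The main test was limma 3.58.1 (R 4.3.3) with an intensity trend on log2(value + 1). It covered the 22290 genes whose mean reached 1, and Benjamini-Hochberg adjustment was made over all of them. Its code was checked on simulated data of a low, set spread. That check does not show how well the test finds differences at the spread between these mice. Alternatives were edgeR 4.0.16, DESeq2 1.42.0, limma-voom with quality weights, other scalings, pseudocounts of 0.5 and 5, other filters, a replicate block, leaving out single mice or the pair of libraries highest in muscle markers, and removing GC and length trends (splines of 4 degrees of freedom). Leaving out controls 2 and 3 was added after seeing the data. Lengths, GC content and nuclear copies (BLAST 2.17.0, identity of at least 99%) came from GENCODE M21 on GRCm38. This is another build than mm8, and coordinates are left out.

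All 13 protein-coding and both rRNA genes are named, with the 5 tRNA genes of highest mean and those with an unadjusted p under 0.05, the 3 nuclear copies of highest mean, the 2 most abundant and the 2 lowest-p genes of each nuclear list, and Tfam, Polrmt, Lrpprc and Ppargc1a. A gene that this rule also names is not reported here. The members and lists were chosen with earlier results of these data known. P-values set each group difference against the spread between these mice, in limma with variances moderated across genes. Intervals of shares cover counting error only.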

Additional observations from a re-analysis of the deposited data

How the results depend on the processing

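Of the 22 mitochondrially encoded genes named, 12 kept the sign of their log2 difference in every setting tallied, and 10 turned in at least 1. Among the 12 were mt-Nd6, mt-Rnr2, mt-Te, mt-Ts2 and mt-Tl1. The fit against control 1 alone was tallied for these genes only. mt-Ty was also among the 12, but its value in control 1, 396, was above the 391, 241 and 298 of fragmented, recovered 1 to 3. The groups did not overlap for mt-Rnr2, mt-Te, mt-Ts2 and mt-Tl1, so leaving out mice could not turn their sign. Calls over the whole table rose from 0 to 1023 with limma-voom and quality weights, and with each mouse left out ran from 0 to 844, the highest without control 1. Called mitochondrially encoded genes rose from 0 to 2 with limma-voom, beside 1023 of 16141 genes over the whole table. These 2 were mt-Nd6 at -1.70 (limma-voom adjusted p = 0.0451) and mt-Ty at 1.60 (limma-voom adjusted p = 0.0494). Over all settings the adjusted p of mt-Nd6 ran from 0.0451 to 1.00. Those with an unadjusted p under 0.05 were 4 in the main analysis, 10 with limma-voom, 7 with the replicate block, 1 with GC and length trends removed (mt-Co2, higher), 1 without the 2 libraries highest in muscle markers (mt-Tp, lower), 1 against control 1 alone (mt-Ti, lower), and 0 to 8 with a mouse left out. With GC and length trends removed in the fit with the replicate block they were 6, of which 5 were higher. The share of all genes with such a p is given for the main analysis only. In the 3 settings with 1 such gene, 0 of the 4 of the main analysis had such a p. The block gave 0 calls. Same-numbered mice correlated at 0.177, 0.393 and 0.0425. Mice of unlike number correlated between -0.356 (fragmented, recovered 2 with control 1) and 0.208 (fragmented, recovered 3 with control 1). Whether same-numbered mice share a batch or a pairing was not tested. The difference in share ran from -1.21 to 1.83 percentage points with a mouse left out. Without control 1, the controls left were those set apart by their GC trend. Nuclear genes named that passed an FDR of 0.05 without control 1 were Cox6b1, Uqcr11, Cox5b, Ndufs5, Uqcrb, Atp5d, Atp5k and Ndufa10 (limma adjusted p from 0.0172 to 0.0442). With limma-voom they were the first 7 of these, Top1mt and, lower, Ptcd3 (limma-voom adjusted p from 0.0451 to 0.0494). Scaling by library size shifted log2 differences by about 0.12, less exactly in genes of few reads, such as mt-Ts2, which went from -3.07 to -2.93. The cause of each turn was not tested. Without the libraries highest in muscle markers, fragmented, recovered 1 and control 2, mt-Rnr1 was -0.10, mt-Co1 -0.33, mt-Atp8 -0.0097, mt-Nd3 -0.35, mt-Cytb -0.068, Sdhc -0.043, Atp5b -0.20, Polg 0.16, Polrmt 0.023 and Ppargc1a 0.079. By edgeR mt-Nd1 was 0.079 and Ppargc1a 0.29, and by DESeq2 0.070 and 0.28. With limma-voom mt-Nd1 was 0.18, mt-Atp8 -0.19, mt-Tc 0.096, Uqcrfs1 0.19 and Ppargc1a 0.019. Scaled by library size, and by library size without mitochondrially encoded genes, mt-Nd1 was 0.117 and 0.124, mt-Tc 0.011 and 0.018, Uqcrfs1 0.083 and 0.089, Polg 0.077 and 0.084, Ppargc1a 0.086 and 0.093, and Gm10925 0.019 and 0.025. With TMM scaling mt-Nd1 was 0.020. With GC and length trends removed, and the same with the block added, mt-Nd1 was 0.21, mt-Atp6 0.0072, mt-Nd4 0.17, mt-Tc 0.69, Cox4i1 -0.075, Cox6a1 -0.23, Atp5b -0.11, Gabpa 0.078, Ppargc1a 0.42 and Gm10925 0.18. With a mouse left out, ranges that crossed 0 were mt-Rnr1 -0.11 to 0.82, mt-Nd1 -0.41 to 0.34, mt-Co1 -0.18 to 0.52, mt-Atp8 -0.14 to 0.39, mt-Atp6 -0.76 to 0.13, mt-Nd3 -0.26 to 0.45, mt-Nd4l -0.023 to 0.28, mt-Nd4 -0.40 to 0.16, mt-Tc -0.47 to 0.19, Uqcrc1 -0.34 to 0.031, Uqcrfs1 -0.24 to 0.26, Atp5b -0.078 to 0.47, Polg -0.20 to 0.083, Ppargc1a -0.68 to 0.43, Gm10925 -0.45 to 0.16 and Gm28438 -0.10 to 1.47. Ranges that kept their sign but moved widely were mt-Co3 -1.24 to -0.11, mt-Nd2 -0.90 to -0.16, mt-Cytb 0.071 to 0.76, mt-Tn 0.22 to 1.30, mt-Ty 0.41 to 1.63, mt-Tp -1.31 to -0.39 and Atp5k 1.18 to 4.88. The median of the protein-coding genes ran from -0.40 to 0.16, and was -0.42 without the libraries highest in muscle markers. Depth limits mt-Atp8 and the tRNA genes with means under 50.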
